A study of Homo sapiens with 12 samples.

Results

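The mRNAs of the matrix metalloproteinases MMP1, MMP2, MMP3, MMP10, MMP12 and MMP14 and of their tissue inhibitors TIMP1, TIMP2, TIMP3 and TIMP4 were followed through etoposide-induced senescence and silencing of BDNF or its receptor. The 10 genes were chosen by name, with earlier results of these data known. Of them, 9 were matched to a row among the 57773 genes of the count files, and MMP12 was not analysed here. The data were RNA-seq counts from WI-38 cells, an established line of human diploid lung fibroblasts, in 4 groups of 3 libraries. All cells had been transfected with 25 nM of an ON-TARGETplus SMARTPool, a mixture of small interfering RNAs against a single target. The proliferating group received the non-targeting pool siCtrl and vehicle (DMSO) for 8 days. The 3 senescent groups received siCtrl, siNTRK2 (against the mRNA of TrkB) or siBDNF and 50 µM etoposide, which breaks DNA by trapping topoisomerase II, for 8 days. No proliferating cells with siNTRK2 or siBDNF were measured, so each silencing was seen only in senescent cells. The study says in general that its experiments in culture were repeated independently, but the labels do not tie the 3 libraries of a group to separate cultures, so p-values measure only the spread between these libraries.

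Matrix metalloproteinases are zinc enzymes that are made as inactive proforms and, once cleaved, cut collagens and other proteins of the extracellular matrix. The TIMPs bind the active enzymes and block them, and TIMP2 also takes part, with MMP14, in the activation of proMMP2 at the cell surface. Several metalloproteinases belong to the senescence-associated secretory phenotype (SASP), the set of factors that senescent fibroblasts release. Only mRNA was measured here, not enzyme activity.

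Libraries held 31567912 to 72328151 counts, and 21518 genes had enough counts to be tested, all 9 matched members among them. A count of 3, taken as the limit of detection, corresponded to 0.0427 to 0.0916 CPM (counts scaled to the normalized depth of each library) and covers counting error only. NTRK2 mRNA was rare throughout, with counts of 11, 1 and 1 in proliferating, 7, 15 and 10 in siCtrl senescent, 10, 23 and 29 in siBDNF and 0, 0 and 0 in siNTRK2 libraries. BDNF mRNA was 3.45-fold lower with siBDNF than with siCtrl in senescent cells (47.1 against 162 CPM) and 1.26-fold higher with siNTRK2. Between siCtrl senescent and proliferating cells, at 162 and 158 CPM, BDNF mRNA did not pass edgeR's test (log2 fold change 0.04, adjusted p = 0.508). All 10 fibroblast markers examined were above 1 CPM in every group, though their levels moved. In senescence 1 was higher and 8 were lower (summed level 23264–25071 against 32257–34172 CPM), with siNTRK2 6 were higher and 1 lower, and with siBDNF 2 were higher and 6 lower. The summed level of 8 markers of blood cells was 0.538–0.731 CPM in proliferating libraries, with PTPRC, CD163, ITGAM and CD3E at 0, and 1.7–3.86 CPM in senescent ones. That of 6 epithelial markers, mostly KRT19, was 17.8–20.1 CPM with KRT5 and KRT14 at 0 in proliferating and 41.1–60.8 CPM in senescent libraries. That of 3 endothelial markers was 0.406–1.42 CPM with CDH5 at 0 and 1.63–2.72 CPM. Their part in the results was not tested, and in bulk RNA fewer cells of a type and less RNA per cell cannot be told apart.

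MMP1, MMP3 and MMP10 are neighbours on chromosome 11 (GRCh37, minus strand), at 102660132–102668891, 102706532–102714340 and 102641233–102651359. The other members are scattered. MMP2 lies on chromosome 16 at 55423612–55540603 and MMP14 on chromosome 14 at 23305769–23318250, both on the plus strand. TIMP2 lies on chromosome 17 at 76849059–76921469 (minus strand). TIMP1 (chromosome X, 47441807–47446188), TIMP3 (chromosome 22, 33197691–33259028) and TIMP4 (chromosome 3, 12194568–12200412) each lie inside a synapsin gene on the opposite strand, SYN1, SYN3 and SYN2. Exons of TIMP1 and TIMP3 share 0 bases with those synapsin exons and TIMP4 shares 170. The sequencing kit was stranded, but the strand setting of the counting was not given in the sources used here, so reads of TIMP4 and SYN2 within those bases cannot be told apart. TIMP2 shares 224 exon bases with CEP295NL on the same strand and 367 with an unnamed long noncoding RNA on the other, and its counts carry the same doubt. CEP295NL had log2 fold changes of 0.15 in senescence, -0.23 with siNTRK2 and -0.16 with siBDNF, where TIMP2 had 0.04, -0.27 and -0.03. With siNTRK2 the mean of CEP295NL went from 129.6 to 111 CPM and that of TIMP2 from 1209 to 1002 CPM. MMP3 and MMP10 hold an identical run of 96 bases in their exons. The study's reads were paired and ran for more cycles than that. Whether any of the small MMP10 count came from the more abundant MMP3 was not tested. Other pairs of these MMPs shared at most 18 bases and pairs of TIMPs at most 21.

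Promoters from RefSeq (GRCh38.p14), 250 bases before to 50 after the start of transcription, were at hand for 5 of the 9 members: MMP10, MMP14, TIMP1, TIMP3 and TIMP4. The 120 bases before the start are given for MMP10, TIMP1 and TIMP3. MMP10 was the only matched member on chromosome 11 with a promoter at hand, and its letters do not describe MMP1 or MMP3. TIMP1 and TIMP3 both rose in senescence but differed with siNTRK2. Capitals mark a TATA box (TATAAA) or a GC box (GGGCGG or, on the other strand, CCGCCC).
MMP10, chr11:102780629-102780748, minus strand: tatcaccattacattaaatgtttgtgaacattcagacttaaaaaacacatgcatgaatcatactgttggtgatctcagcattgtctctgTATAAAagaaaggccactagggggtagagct
TIMP1, chrX:47582316-47582435, plus strand: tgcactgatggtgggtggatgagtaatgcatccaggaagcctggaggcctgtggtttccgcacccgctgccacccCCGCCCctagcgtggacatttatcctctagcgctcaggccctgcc
TIMP3, chr22:32801585-32801704, plus strand: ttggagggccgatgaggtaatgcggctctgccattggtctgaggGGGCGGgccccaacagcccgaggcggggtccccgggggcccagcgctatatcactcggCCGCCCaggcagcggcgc
Of these 5 windows, only that of MMP10 held TATAAA, which began 31 bases before the start. TIMP3 held 5 GC boxes over its whole window, TIMP1 held 2, MMP14 and TIMP4 held 1 each and MMP10 held 0. The exact letters TGAGTCA, 1 form of the AP-1 site, were in none of the 5 windows. Variants of that site were not searched, so its absence from these promoters was not shown. Searched on both strands, TATAAA was present in 11.5%, GGGCGG in 45.0% and TGAGTCA in 4.95% of 35116 RefSeq promoters of the same length. A match here is a description of the letters and not of a bound factor.

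The family was dominated by a few mRNAs. Levels between genes were compared as CPM per kb of exon. In all 4 groups TIMP1 was the highest member and MMP2 the second, and MMP10 was the lowest. In siCtrl senescent cells TIMP1 reached 1552 ± 20.5 CPM per kb (SD, n = 3), MMP2 313 ± 17.3 and TIMP3 266 ± 7.45. TIMP2 at 195 ± 4.89 and MMP1 at 193 ± 2.23 CPM per kb overlapped, and MMP14 followed at 177 ± 1.85. A wide gap set these 6 mRNAs apart from MMP3 at 15 ± 0.574, TIMP4 at 4.14 ± 0.413 and MMP10 at 0.849 ± 0.175 CPM per kb. In proliferating cells MMP1 was sixth at 80.8 ± 3.48 CPM per kb, below TIMP3 at 127 ± 3.65, and TIMP4 and MMP3 overlapped. With siNTRK2, TIMP3 dropped from the third to the sixth place at 123 ± 1.31 CPM per kb, and MMP1 and TIMP2 overlapped. With siBDNF, MMP14 at 255 ± 4.73 and MMP1 at 253 ± 0.405 CPM per kb overlapped. Together the 9 mRNAs took 0.466–0.477% of all counts in proliferating libraries, 0.734–0.773% in siCtrl senescent, 0.706–0.735% in siNTRK2 and 0.845–0.862% in siBDNF libraries.

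**Figure D1:**
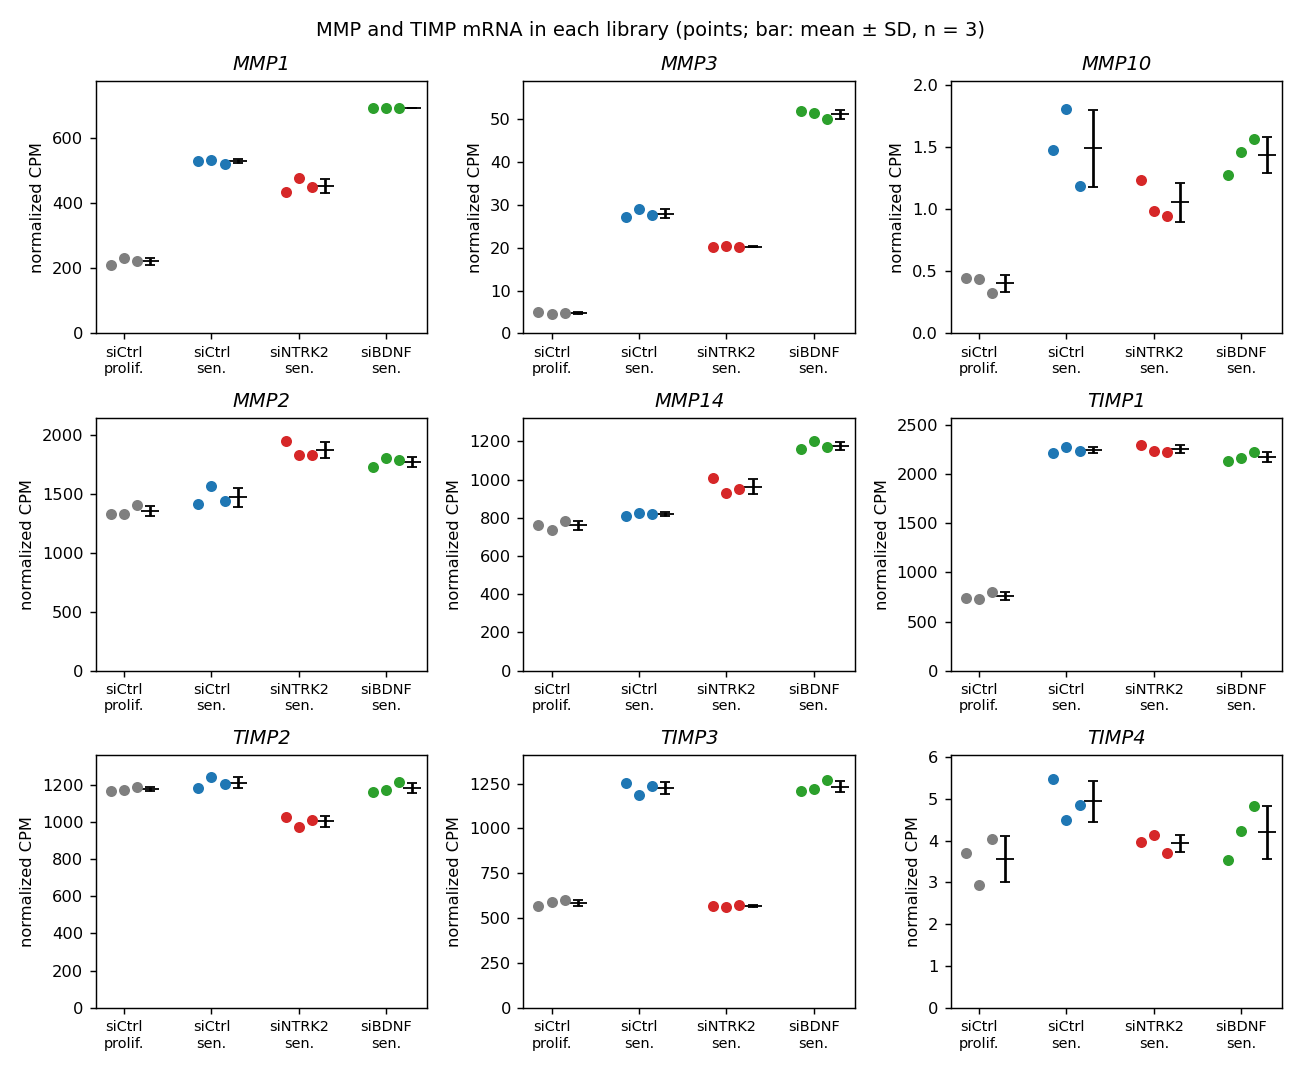
Normalized CPM (vertical axes, linear, from 0) of the 9 members in each of the 12 libraries, by group; bars give the mean ± SD of 3 libraries. MMP1 and MMP3 stepped up from proliferating to senescent cells and were highest with siBDNF, whereas the 3 siNTRK2 libraries of TIMP3, at 559.9 to 572 CPM, sat far below the other senescent groups.

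How senescence changed these mRNAs was asked with siCtrl in both states. In siCtrl senescent cells, 8 of 9 members were higher than in proliferating cells and 0 were lower, led by the stromelysins MMP3 and MMP10, the inhibitor TIMP1 and the collagenase MMP1. Among all tested genes 58.1% passed the same test (an adjusted p under 0.05 in edgeR's quasi-likelihood test), 29.8% upward and 28.3% downward. The median log2 fold change was 1.07 over the 9 members and 0.025 over all tested genes. Because the members were chosen with earlier results of these data known, this contrast is a description only. The fold threshold used in the study, an absolute log2 fold change over 1, was also passed by 5 members and by 16.7% of the tested genes.

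MMP1, the interstitial collagenase, which makes the first cut in fibrillar collagen, read 211, 230.3 and 222 CPM in the proliferating libraries and 529, 533 and 521 CPM in the siCtrl senescent ones. Every senescent library lay above every proliferating one, a 2.39-fold difference (log2 fold change 1.25 ± 0.044 SE, adjusted p = 7.43e-18). MMP3, stromelysin-1, which degrades proteoglycans and can activate proMMP1, was scarce in proliferating cells. It read 4.95, 4.43 and 4.79 CPM there and 27.0, 29.0 and 27.5 CPM in senescent cells. This 5.91-fold difference was the largest among the 9 members (log2 fold change 2.56 ± 0.069, adjusted p = 3.8e-20). MMP10, stromelysin-2, moved from 0.449, 0.442 and 0.325 CPM to 1.48, 1.81 and 1.19 CPM. The groups did not overlap, but the senescent libraries of MMP10 rested on only 69 to 105 counts (log2 fold change 1.85 ± 0.26, adjusted p = 1.07e-06).

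The gelatinase MMP2 and the membrane-anchored MMP14, both already abundant, moved little. MMP2 read 1334, 1334 and 1406 CPM in proliferating and 1417, 1568 and 1439 CPM in senescent libraries (log2 fold change 0.12 ± 0.044, adjusted p = 0.0242). MMP14 read 761, 738 and 785 CPM against 811, 828 and 819.9 CPM (log2 fold change 0.11 ± 0.041, adjusted p = 0.0302). These groups sat close together without overlapping. The MMP2 call was lost without proliferating replicate 1 (adjusted p = 0.118) or 2 (0.137), without senescent replicate 2 (0.232) and with only the 2 groups in the edgeR fit (0.0532). The MMP14 call was lost without proliferating replicate 1 or 2, without any of the 3 senescent replicates, with no filter on low counts and with only the 2 groups, at adjusted p-values from 0.0521 to 0.215.

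Among the inhibitors, TIMP1, a broad inhibitor of soluble metalloproteinases, read 737, 728 and 802 CPM in proliferating and 2218, 2276 and 2237 CPM in senescent libraries. It was 2.97-fold higher in senescence, and was the most abundant member per kb in both states (log2 fold change 1.57 ± 0.043, adjusted p = 3.8e-20). TIMP3, the inhibitor that stays bound to the matrix and also blocks several ADAM and ADAMTS enzymes, read 566, 588 and 598 CPM against 1251, 1186 and 1237 CPM. It was 2.1-fold higher, with the groups far apart (log2 fold change 1.07 ± 0.041, adjusted p = 3.56e-17). TIMP4 was low and rose 1.4-fold, from 2.95–4.03 to 4.5–5.47 CPM (log2 fold change 0.49 ± 0.14, adjusted p = 0.00403), a call that was lost without proliferating replicate 2 (0.0564). TIMP2 was the exception, at 1165–1186 CPM in proliferating and 1184–1243 CPM in senescent libraries, and these ranges overlapped (log2 fold change 0.04, 95% interval -0.04 to 0.12, adjusted p = 0.381).

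**Figure D2:**
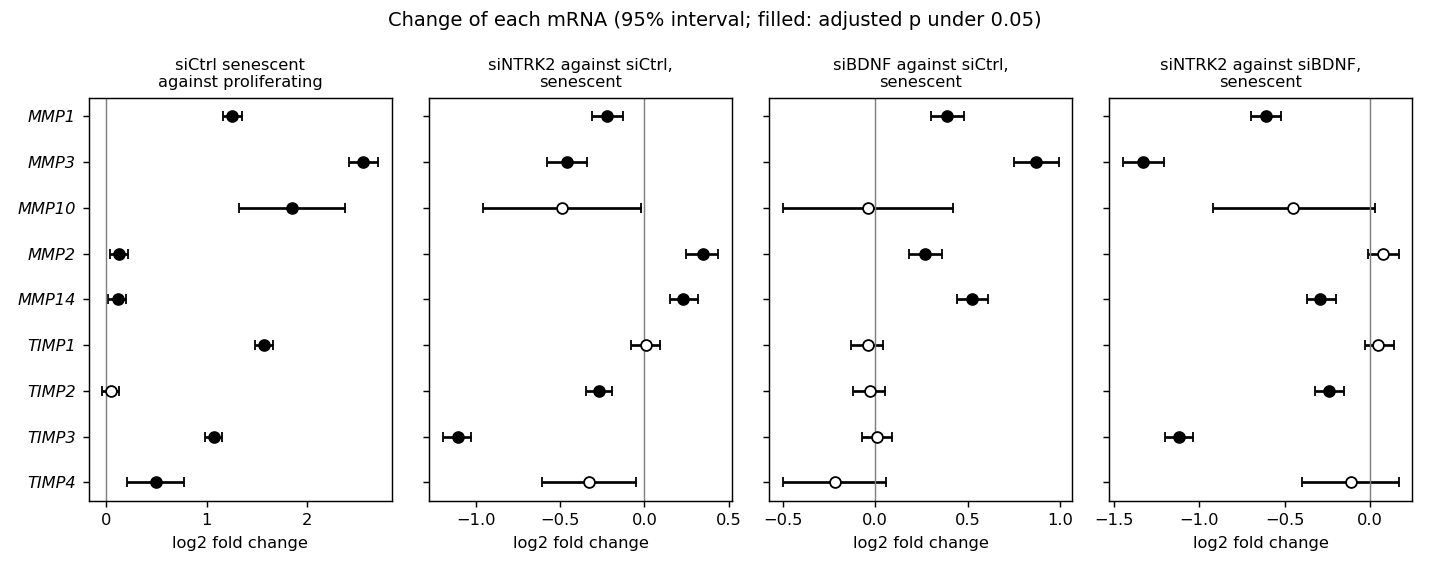
Log2 fold change of each member (horizontal axes, separate scale in each panel) in the 4 comparisons, with 95% intervals from edgeR; filled points passed an adjusted p under 0.05. MMP3 was the highest in the panels of senescence (2.56) and of siBDNF (0.87), and TIMP3 was the lowest in that of siNTRK2 (-1.11) while its interval with siBDNF spanned 0.

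For the silencing of TrkB, siNTRK2 was compared with siCtrl in senescent cells. Each target, here and with siBDNF, was silenced with a single pool, and NTRK2 mRNA was already rare with siCtrl. Loss of the target and effects of its pool on other mRNAs therefore cannot be told apart. TIMP3, MMP3, TIMP2 and MMP1 were lower with siNTRK2 and MMP2 and MMP14 were higher, so 6 of 9 members changed. By the same test 21.1% of all tested genes were called, 11.1% higher and 10.0% lower. With the fold threshold added, TIMP3 alone remained of the members, against 0.957% of the tested genes. The median log2 fold change was -0.27 over the members and -0.002 over all tested genes.

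TIMP3 read 1251, 1186 and 1237 CPM with siCtrl and 568, 559.9 and 572 CPM with siNTRK2. The 3 silenced libraries lay close together and 2.16-fold below the controls (log2 fold change -1.11 ± 0.041, adjusted p = 2.07e-15). Their levels overlapped those of proliferating cells, 566 to 598 CPM. TIMP2 was also lower, though by much less, at 1026, 971 and 1011 CPM against 1184, 1243 and 1201 CPM (log2 fold change -0.27 ± 0.040, adjusted p = 1.94e-05). TIMP1 did not follow them. It read 2302, 2238 and 2232 CPM with siNTRK2, overlapping the control libraries, and the 95% interval of its log2 fold change was -0.08 to 0.09 (adjusted p = 0.914). TIMP4 read 3.71–4.13 CPM against 4.5–5.47 CPM and did not pass the test (log2 fold change -0.33, 95% interval -0.61 to -0.05, adjusted p = 0.0905).

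On the enzyme side MMP3 and MMP1 were lower and the gelatinase MMP2 and its membrane partner MMP14 were higher. MMP3 read 20.2, 20.3 and 20.2 CPM with siNTRK2, 1.37-fold below its controls (log2 fold change -0.46 ± 0.060, adjusted p = 3.92e-06). MMP1 read 434, 477 and 448 CPM, 1.17-fold below its controls (log2 fold change -0.22 ± 0.044, adjusted p = 0.000622). Both remained above every proliferating library. MMP10 read 0.95 to 1.24 CPM, overlapping the controls, and did not pass the test (log2 fold change -0.49, 95% interval -0.96 to -0.02, adjusted p = 0.139). MMP2 rose to 1955, 1835 and 1835 CPM, 1.27-fold above the controls (log2 fold change 0.35 ± 0.044, adjusted p = 3.38e-06). MMP14 rose to 1009, 931 and 951 CPM, against 811 to 828 CPM (log2 fold change 0.23 ± 0.041, adjusted p = 0.000195). The groups did not overlap for either gene.

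Other measures of cell state moved with siNTRK2 as well. CDKN1A, which encodes the cell-cycle inhibitor p21, was lower (log2 fold change -0.50), as was GDF15 (-0.62), both of which had risen in senescence (1.62 and 2.52). MKI67 (1.72), LMNB1 (0.62) and CCNB1 (0.54), all lower in senescence (-3.68, -4.20 and -2.52), were higher. The other 2 of the 7 genes examined kept the direction they had in senescence. CDKN2A, which encodes p16, was higher in senescence (0.24) and with siNTRK2 (0.21), where its libraries overlapped those of the controls. IL6 was lower in senescence (-0.25) and with siNTRK2 (-0.29). The summed level of the 10 fibroblast markers was 27309–30215 CPM with siNTRK2 and 23264–25071 CPM with siCtrl. Their part in the changes of TIMP3 and the other members was not tested.

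Silencing the ligand was examined in the same way, with siBDNF against the same siCtrl senescent libraries. Here MMP3, MMP14, MMP1 and MMP2 were higher and 0 members were lower, and 0 of the 4 TIMPs passed the test. Of all tested genes 20.5% were called, 10.3% higher and 10.2% lower, so that 50.5% of the calls were higher, a share that was 69.3% when counts were scaled by library totals only. With the fold threshold 0 members and 0.609% of the tested genes were left. The median log2 fold change was 0.01 over the members and 0.004 over all tested genes.

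MMP3 read 51.8, 51.4 and 49.9 CPM with siBDNF against 27.0 to 29.0 CPM with siCtrl. Every siBDNF library was above every control, a 1.83-fold difference (log2 fold change 0.87 ± 0.058, adjusted p = 1e-10). MMP14 read 1158, 1201 and 1172 CPM, 1.44-fold above its controls (log2 fold change 0.52 ± 0.041, adjusted p = 2.2e-09). MMP1 read 692, 691 and 693 CPM, 1.31-fold above its controls and the highest level of this collagenase in the 4 groups (log2 fold change 0.39 ± 0.044, adjusted p = 4.74e-07). MMP2 read 1728, 1807 and 1794 CPM and was 1.2-fold higher (log2 fold change 0.27 ± 0.044, adjusted p = 0.000102). MMP10, the remaining neighbour of MMP1 and MMP3, read 1.28, 1.46 and 1.57 CPM, within the range of the controls. Its 95% interval was wide, from -0.50 to 0.42 on the log2 scale (adjusted p = 0.931).

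The TIMP intervals with siBDNF were narrow for the abundant members. TIMP3 read 1211, 1218 and 1268 CPM, and the 95% interval of its log2 fold change was -0.07 to 0.09 (adjusted p = 0.924). That of TIMP1 was -0.13 to 0.04 (adjusted p = 0.54) and that of TIMP2 -0.12 to 0.05 (adjusted p = 0.632). TIMP4 at 3.54 to 4.82 CPM had an interval of -0.50 to 0.06 (adjusted p = 0.299). Each of the 4 overlapped its control libraries. Of the 7 genes of cell state, MKI67 alone passed the test with siBDNF (log2 fold change 0.91).

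Because both silencings were compared with the same controls, they were also set directly against each other. MMP3, TIMP3, MMP1, MMP14 and TIMP2 were lower with siNTRK2 than with siBDNF, and 0 members were higher. The test called 16.7% of all tested genes, 8.84% higher and 7.86% lower, and 1.16% with the fold threshold, which MMP3 and TIMP3 passed. Of those calls 52.9% were higher, and 37.7% with library totals only; the direction of the 5 called members was the same under both scalings. MMP3 stood at 20.2 ± 0.0559 CPM with siNTRK2 and 51.0 ± 0.998 CPM with siBDNF (SD, n = 3), a 2.52-fold difference (log2 fold change -1.33 ± 0.059 SE, adjusted p = 1.81e-14). TIMP3 stood at 567 ± 6.02 and 1232 ± 31.3 CPM, 2.17-fold apart (log2 fold change -1.12 ± 0.041, adjusted p = 4.99e-16). MMP1 at 453 ± 22.0 and 692 ± 1.11 CPM differed 1.53-fold (log2 fold change -0.61 ± 0.044, adjusted p = 1.95e-10). MMP14 was lower by a log2 fold change of -0.29 and TIMP2 by -0.24 (adjusted p = 1.44e-05 and 0.000112).

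MMP2, by contrast, was above its controls in both silenced groups by similar amounts. The direct log2 fold change was 0.08, with a 95% interval of -0.01 to 0.17 (adjusted p = 0.257). The difference of TIMP1 had an interval of -0.03 to 0.14, that of TIMP4 of -0.40 to 0.17 and that of MMP10 of -0.92 to 0.03, and none of the 3 passed the test.

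The balance of proteinase to inhibitor mRNA was summarised in each library as the log2 ratio of the summed CPM per kb of the 5 MMPs to that of the 4 TIMPs. TIMP mRNA outweighed MMP mRNA in every library. The ratio was -0.65 ± 0.02 in proliferating cells (SD, n = 3), -1.53 ± 0.03 in siCtrl senescent cells, -1.24 ± 0.01 with siNTRK2 and -1.11 ± 0.03 with siBDNF. Senescence went with a shift of -0.88 toward inhibitor mRNA, and siNTRK2 and siBDNF with shifts of 0.29 and 0.42 toward proteinase mRNA. The 4 differences each had a 2-sided exact permutation p = 0.1 (adjusted over the 4 comparisons, 0.1), the smallest that this test can give with 3 against 3 libraries, so it cannot reach 0.05. No 2 of the groups compared overlapped.

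Different members carried these shifts. In senescence the shift was -0.16 when TIMP1 was left out of the sum, and with siNTRK2 it was 0.86 without TIMP1 and 0.51 with summed counts in place of CPM per kb. TIMP1 made up 62.0% of the TIMP sum in proliferating, 76.9% in siCtrl senescent, 84.4% in siNTRK2 and 76.5% in siBDNF cells. The share of TIMP3 was 15.1%, 13.2%, 6.67% and 13.6% in the same order. Within the MMP sum, the share of MMP1 was 15.1%, 27.6%, 21.1% and 27.7%, that of MMP2 was 53.8%, 44.8%, 50.8% and 41.3%, and that of MMP3 stayed small at 0.475%, 2.15%, 1.39% and 3.01%. The order of siNTRK2 and siBDNF depended on the measure. Their difference was -0.13 per kb, -0.01 without MMP1, 0.10 with summed counts and 0.46 without TIMP1.

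**Figure D3:**
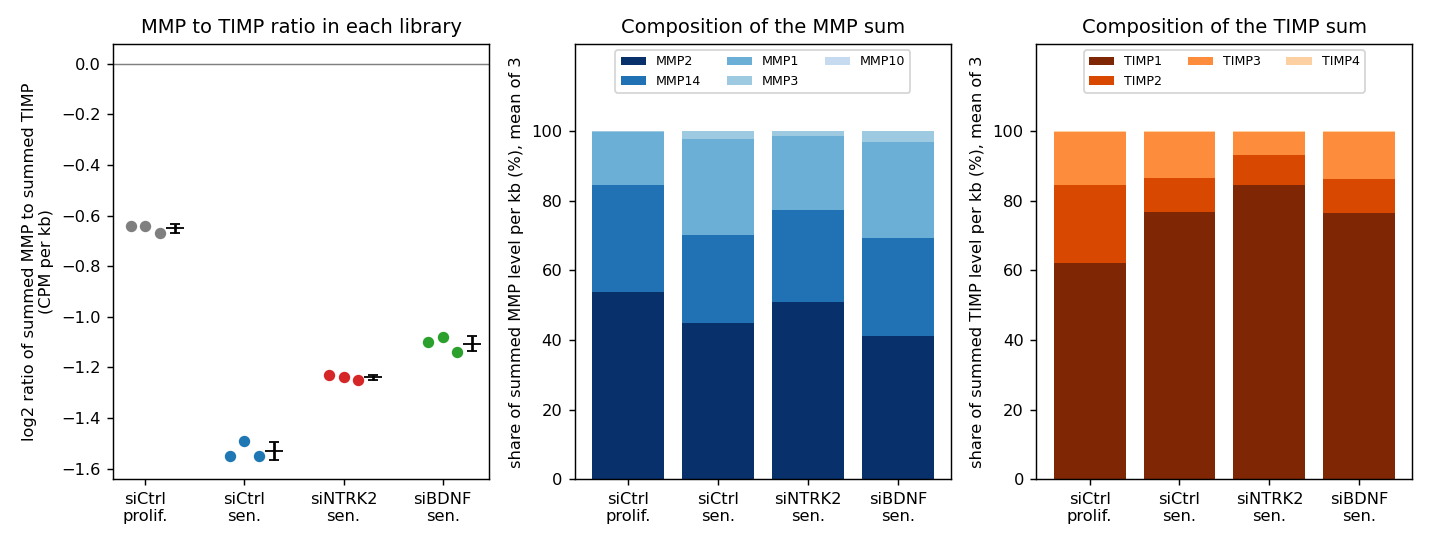
Left, log2 ratio of summed MMP to summed TIMP level (CPM per kb) in each library, with the mean ± SD of 3 libraries per group; all 12 lie below 0. Middle and right, the mean share (%) of each member in the MMP and TIMP sums of the 4 groups; the TIMP3 share with siNTRK2 is 6.67%.

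MMP1, MMP3 and MMP10 sit in a run of MMP genes on chromosome 11, and 5 neighbours in that run were also read; MMP12, which lies between MMP3 and MMP13, was not. MMP7, MMP20, MMP27, MMP8 and MMP13 were rare. In the proliferating libraries MMP20, MMP27 and MMP13 had 0 counts, MMP7 had 2, 0 and 0 and MMP8 had 6, 6 and 0. In siCtrl senescent libraries MMP8, the neutrophil collagenase, had 15, 10 and 12 counts, MMP7 (matrilysin) 12, 7 and 4 and MMP13, a further collagenase, 9, 2 and 12. MMP1 in the same libraries had 29708, 30945 and 30104. Of the 8 genes read, MMP1 had by far the most counts, followed by MMP3.

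**Figure D4:**
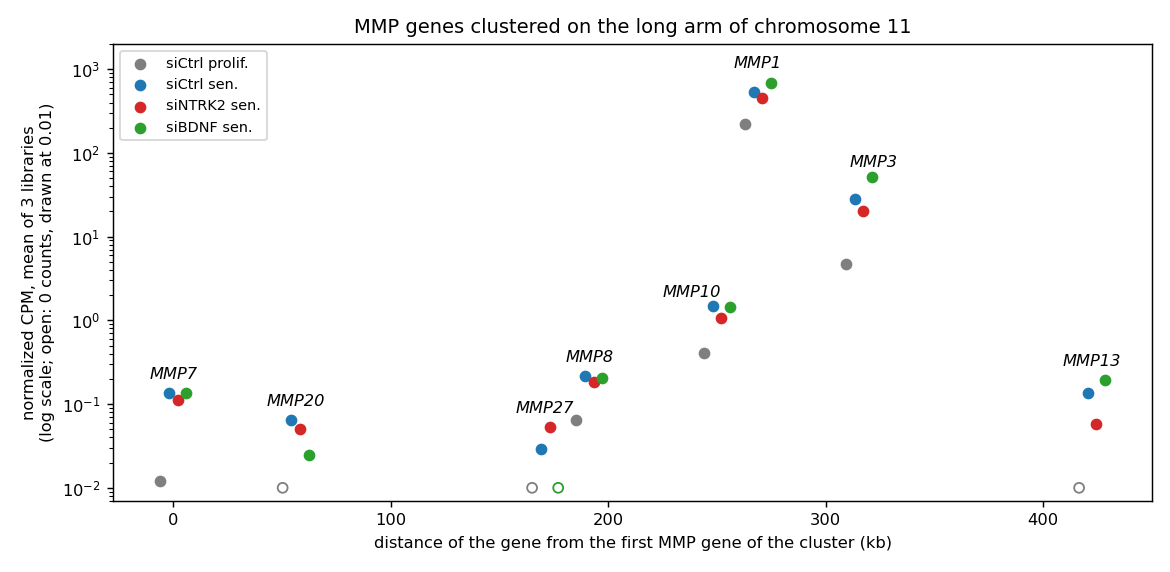
Mean normalized CPM of 3 libraries (vertical axis, log scale; open circles are 0 counts, drawn at 0.01) for 8 MMP genes of the chromosome 11 cluster, by distance in kb from its first MMP gene; points of a gene are set slightly apart by group. MMP1 reached 221 to 692 CPM, while MMP7, MMP20, MMP27, MMP8 and MMP13 stayed at or below 0.216 CPM in every group.

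WTAPP1, a pseudogene on the opposite strand, spans MMP10 and MMP1 and reaches into MMP3, and shares 223 exon bases with MMP1 and 32 with MMP3. Its counts were 0.231 to 0.248 times those of MMP1 in all 12 libraries, and its log2 fold changes were 1.26, -0.21, 0.35 and -0.56 in the 4 comparisons, where MMP1 had 1.25, -0.22, 0.39 and -0.61. With the strand setting of the counting not given, reads of WTAPP1 and MMP1 in the shared bases cannot be told apart. Over the 12 libraries, which share the 4 groups and so their differences, the log2 levels most like MMP1 among 15568 genes were those of WTAPP1 (Pearson r = 0.999), TFPI2 (0.997) and C3 (0.997). Those most like MMP3 were C3, TFPI2 and SLC16A6, each at 0.997, and those most like MMP10 were HSDL2 (0.981), PDE4C (0.978) and ADAMTSL1 (0.977). TFPI2, a serine protease inhibitor of the matrix, had 32.3 CPM in proliferating, 182 in siCtrl senescent, 148 in siNTRK2 and 358 in siBDNF cells. These correlations are descriptions of 12 libraries in 4 groups.

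Of 17 further MMPs listed, 12 were tested. In senescence 7 were higher and 4 lower, beside 29.8% and 28.3% of all tested genes. The fold threshold was passed by 6 of the 12 and by 16.7% of all tested genes. Among those 6 were MMP13, MMP9, MMP7 and MMP8, at counts of 15 or fewer in the libraries compared. In proliferating libraries these genes had 0 to 6 counts. They passed the filter on low counts only through senescent libraries, so it favoured upward calls and theirs are not read as a result. The number called was 7, not 11, with a minimum of 10 counts in every library or with only the 2 groups in the fit. The filter on low counts was applied anew in both settings, so these 7 are not a share of the 12 genes. With siNTRK2, 4 were higher and 1 lower (11.1% and 10.0% of all tested genes). MMP24, a membrane-type enzyme, fell from 31.2 to 19.5 CPM (log2 fold change -0.67), while MMP16, another of that type, rose from 25.2 to 33.2 CPM (0.40). With siBDNF the same pair were the only calls, MMP24 at -0.54 and MMP16 at 0.67, 2 of 12 against 20.5% of all tested genes.

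The related ADAM and ADAMTS enzymes, several of them targets of TIMP3, were examined as whole lists. In senescence 5 of 9 ADAM genes were higher and 4 lower, and 5 of 17 ADAMTS genes were higher and 7 lower, beside 29.8% and 28.3% of all tested genes. With siNTRK2, 5 ADAM genes and 9 ADAMTS genes were higher and 0 of either list were lower, beside 11.1% and 10.0% of all tested genes. The leading ones were ADAM12 (log2 fold change 0.79), ADAM19 (0.58), ADAM9 (0.38) and ADAM33 (0.34), and ADAMTS14 (1.06, at 1.94 against 0.933 CPM), the procollagen-processing enzyme ADAMTS2 (0.74), ADAMTS7 (0.68) and ADAMTS12 (0.62). Without siCtrl senescent replicate 3, or without siNTRK2 replicate 3, 3 ADAM genes were called. With siBDNF, 3 ADAM genes were higher and 0 lower, and 2 ADAMTS genes were higher and 3 lower (3 called in all without siBDNF replicate 2), beside 10.3% and 10.2% of all tested genes. ADAM12 (0.58), ADAM19 (0.57), ADAMTS12 (0.56) and ADAMTS2 (0.54) were again higher, and ADAMTS8 was lower (-0.83).

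Among 16 genes that activate or restrain metalloproteinases, 11 were higher and 4 lower in senescence, beside 29.8% and 28.3% of all tested genes. The serine protease inhibitor SERPINE2 rose from 163 to 1061 CPM (log2 fold change 2.70), TFPI2 from 32.3 to 182 CPM (2.49) and tissue plasminogen activator, PLAT, from 173 to 539.6 CPM (1.64). THBS1, thrombospondin-1, fell from 4082 to 1881 CPM (-1.12). With siNTRK2, 6 were higher and 4 lower (11.1% and 10.0% of all tested genes), and 6 were not called. The calls without overlap between groups were led by PLAT (-0.57), the clearance receptor LRP1 (0.54), the protease trap A2M (0.52) and THBS2 (0.47). With siBDNF, 6 were higher and 5 lower (10.3% and 10.2% of all tested genes), and 5 were not called. Those without overlap were led by TFPI2 (0.98), SERPINE2 (0.73), LRP1 (0.64) and A2M (0.44).

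Matrix proteins that these enzymes cut were mostly lower in senescence, with 9 of 11 lower and 1 higher, beside 28.3% and 29.8% of all tested genes. Elastin, ELN, fell from 65.6 to 26.1 CPM (log2 fold change -1.33) and COL3A1 from 2052 to 938 CPM (-1.13). The 1 that was higher was fibronectin, FN1 (0.55), named here after its value was seen. With siNTRK2, 10 of 11 were higher and 0 lower, beside 11.1% and 10.0% of all tested genes, among them the basement-membrane collagens COL4A2 (0.91) and COL4A1 (0.82), COL5A1 (0.83) and ELN (0.82). With siBDNF, 7 were higher and 2 lower, beside 10.3% and 10.2%. The proteoglycan VCAN (0.66) and FN1 (0.44) were higher, and DCN (-0.64) and ELN (-0.52) were lower.

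AP-1 and ETS factors are known regulators of MMP1, MMP3 and MMP10. Of 15 such factors, 6 were higher and 4 lower in senescence, a number called close to the 58.1% of all tested genes, including FOSB at 1.36 against 0.388 CPM (log2 fold change 1.75) and ETS1 at 48.1 against 98.9 CPM (-1.04). With siNTRK2, 1 was higher and 6 lower, including FOSB (-0.97), ATF3 (-0.41) and JUNB (-0.36), while ETS1 was the 1 that was higher (0.33). In all 21.1% of the tested genes were called, and without siCtrl senescent replicate 1 the number of factors called was 4. With siBDNF, 6 were higher and 1 lower (10.3% and 10.2% of all tested genes), including ETV1 (0.40), JUNB (0.30), JUND (0.29) and ETS1 (0.23), and ATF3 was lower (-0.34). In the direct comparison 8 of 15 were lower with siNTRK2 than with siBDNF and 0 higher (7.86% and 8.84% of all tested genes), led by FOSB (-1.17) and JUNB (-0.66). Whether these mRNAs bear on those of the MMPs was not tested.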

How the data were processed

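RNA was extracted from WI-38 cells and, per the study's methods, sequenced as paired ends from stranded poly(A) libraries. The authors trimmed reads with Cutadapt, aligned them to hg19 with STAR 2.4.0j and counted them per gene with featureCounts 1.6.4. The deposited values are raw counts, 1 file per library. The strand setting of the counting was not given in the sources used here. Ensembl identifiers were paired with symbols for 55538 of 57773 genes.

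Genes passing edgeR's default filter on low counts (21518) were fitted together over the 4 groups with TMM scaling and edgeR 4.0.16's quasi-likelihood test, Benjamini-Hochberg adjusted over all tested genes. Calls needed an adjusted p under 0.05. The study's methods state DESeq2's Wald test and an absolute log2 fold change over 1; both were run as alternatives (DESeq2 1.42.0). CPM are TMM-normalized, and levels per kb were divided by the merged length of all annotated exons of a gene. These exons came from another annotation than the one the authors counted with. The order of genes per kb and the MMP to TIMP ratio per kb depend on these lengths. The scripts were tested on simulated data.

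All members were named in each comparison, and of each other list up to 4 called genes with the largest changes and no overlap between groups, beside genes added after their values were seen (FN1 in senescence, CDKN1A, CDKN2A and IL6 of the 7 cell-state genes, and ETS1 with siBDNF). The members and lists were chosen with earlier results of these data known. Library totals of 31567912 to 72328151 counts set the detection floor of 3 counts. The ratio of MMP to TIMP sums was compared by exact permutation (SciPy 1.17.1). Alternatives were other scalings, filters, models and leaving out each library. Of the marker and matrix lists, 2 genes are not reported here.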

Additional observations from a re-analysis of the deposited data

Results flagged for a closer look

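For 3 members the responses to siNTRK2 and siBDNF, each measured against the same siCtrl senescent libraries, differed in the direct test between the silenced groups. MMP3 had a log2 fold change of -1.33 between siNTRK2 and siBDNF (edgeR adjusted p = 1.81e-14), being lower than control with siNTRK2 (-0.46) and higher with siBDNF (0.87). MMP1 differed by -0.61 (adjusted p = 1.95e-10), with -0.22 and 0.39 against control. TIMP3 differed by -1.12 (adjusted p = 4.99e-16), with -1.11 against control for siNTRK2 and 0.01, not past the test, for siBDNF. In all 3 the libraries of the silenced groups did not overlap.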

How the results depend on the processing

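Requiring an absolute log2 fold change over 1 as well left 5 members called in senescence, 1 with siNTRK2, 0 with siBDNF and 2 in siNTRK2 against siBDNF, from 8, 6, 4 and 5. Leaving out each library in turn gave 5 to 8 calls in senescence, where proliferating replicate 2 gave the 5, and 6, 4 and 5 in the others. DESeq2's test, its size factors, library totals, other filters and a fit of only the groups compared changed no member's call outside MMP2 and MMP14 in senescence. Replicates of the same number were uncorrelated (mean r = 0.00758, from -0.0614 to 0.0739 over 18 pairs, against -0.00385 for different numbers), and the replicate block gave 8, 6, 4 and 5 members, with 0 calls changed. With library totals, log2 fold changes with siBDNF, none past the test, changed sign to 0.01 for MMP10, 0.01 for TIMP1 and 0.02 for TIMP2. With a library left out, uncalled values spanned 0: -0.00687 to 0.03 for TIMP1 with siNTRK2, -0.18 to 0.12 for MMP10 and -0.01 to 0.02 for TIMP3 with siBDNF, and -0.19 to 0.00251 for TIMP4 in siNTRK2 against siBDNF. The MMP to TIMP difference of siNTRK2 and siBDNF reversed to 0.10 with summed counts and 0.46 without TIMP1; its other differences kept their direction. The cause of these changes was not tested. Depth limits MMP10, TIMP4 and the other MMPs of the chromosome 11 cluster.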
